A study of Mus musculus with 2 samples.

Results

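The 10 genes described here belong to the antioxidant programme of the transcription factor NRF2 and to glutathione synthesis. They are Nfe2l2, Keap1, Gclc, Gclm, Nqo1, Hmox1, Srxn1, Txnrd1, Slc7a11 and Abcc4, chosen by symbol among the 32285 genes of the deposited matrix, and all 10 were found. The study took single nuclei from mouse liver, from residual hepatocellular carcinoma (HCC) that had been microdissected from frozen tissue. Its labels give 2 samples in 1 group, MRD-HCC, and no strain, genotype, age or treatment. The 1 matrix of counts holds 17169 barcodes that name no sample, so all of its nuclei were treated as 1 pooled sample, and no value below has replicates or a test across animals. Tumour-free or untreated liver was not analysed.

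Levels were compared between 4 classes of nuclei, each picked by a set of marker genes that contains none of the 10. Among 9632 barcodes with at least 2000 unique molecular identifiers (UMIs), the gates took 270 hepatocyte-like tumour nuclei, 2062 Pkhd1-high tumour nuclei, 708 ductal nuclei and 1727 hepatocyte nuclei. Ccnd3, a cyclin gene of the hepatocyte-like tumour panel, stood at 4805 UMIs per 1000000 (CPM) in hepatocyte-like tumour, 6076 CPM in Pkhd1-high tumour, 6272 CPM in ductal and 155 CPM in hepatocyte nuclei. Ductal nuclei carried the duct channel gene Cftr at 235 CPM, against 0.82 CPM in hepatocyte nuclei, but their keratin Krt19 was only at 11.2 CPM, and Gpc3, an oncofetal gene of HCC, was at 504 CPM in them against 5.27 CPM in hepatocyte nuclei. The ductal class thus shares markers with the tumour classes, and it is called ductal only for its gate. The hepatocyte gate required the hepatocyte-like tumour panel, which holds Ccnd3 and Gpc3, to sum to under 1000 CPM. Low levels of both genes in hepatocyte nuclei therefore follow from that gate. Hepatocyte genes such as Cps1 and Hnf4a had to sum to under 1500 CPM in Pkhd1-high tumour and ductal nuclei. They had to reach 1500 CPM in hepatocyte-like tumour and hepatocyte nuclei. The part of these thresholds in the levels of other liver genes below, such as Cbs, Cth, Abcc6, Abcb4, Gstz1 and Cat, was not tested. Afp, another HCC marker, was at 17.3 CPM in hepatocyte-like tumour nuclei and at 33.2 CPM in free RNA. Depth differed, with a median of 5188.5 UMIs per nucleus in hepatocyte-like tumour, 7086 in Pkhd1-high tumour, 4105 in ductal and 14026 in hepatocyte nuclei. The share of UMIs that free RNA may give, estimated from haemoglobin genes, was 20.6%, 14.4%, 20.4% and 8.99% in the same order. Levels with this free RNA taken out are given below for Gclc, Gclm, Hmox1 and Srxn1, and the part of depth was not tested except in the shares of thinned nuclei.

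NRF2, encoded by Nfe2l2, is held at a low level by KEAP1, which passes it to the proteasome. Oxidants and electrophiles modify KEAP1, and NRF2 then pairs with small MAF proteins on antioxidant response elements of genes for glutathione synthesis, quinone reduction, haem breakdown, thioredoxin repair and conjugate export. In the liver, glutathione conjugates reactive drug metabolites, and mutations that free NRF2 occur in human HCC.

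The core of the antioxidant response element can be written TGACNNNGC or TGAGNNNGC, and it was searched on both strands in the 250 bases before each transcript start of the RefSeq promoter table (GRCm38.p6). Of the 10 genes, 8 had at least 1 window, and Gclc and Hmox1 had none. At least 1 match stood in the windows of 6 of the 8 genes, namely Nfe2l2, Gclm, Srxn1, Txnrd1, Slc7a11 and Abcc4, while 25.7% of all 27025 genes of the table held one. Keap1 and Nqo1 had no match, which says only that these letters are not in this window. The 8 genes have 11 windows, and all 27025 genes have 32851 windows. The genes were chosen as NRF2 targets, a class known for this element, so the count is a description and is not independent of the choice. The stretches of 60 bases around matches are shown so that the element can be seen in its place. Capitals mark the match, and a match on the opposite strand is written as it reads on the printed strand.
Nfe2l2, chr2:75704854-75704913, minus strand: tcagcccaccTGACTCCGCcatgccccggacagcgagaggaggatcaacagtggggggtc
Gclm, chr3:122245397-122245456, plus strand: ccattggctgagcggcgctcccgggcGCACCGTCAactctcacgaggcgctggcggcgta
Srxn1, chr2:152105340-152105399, plus strand: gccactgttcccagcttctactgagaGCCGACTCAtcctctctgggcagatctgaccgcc
Srxn1, chr2:152105453-152105512, plus strand: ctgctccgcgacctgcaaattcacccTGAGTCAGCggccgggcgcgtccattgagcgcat
Txnrd1, chr10:82859088-82859147, plus strand: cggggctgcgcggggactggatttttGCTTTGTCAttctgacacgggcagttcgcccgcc
Slc7a11, chr3:50443677-50443736, minus strand: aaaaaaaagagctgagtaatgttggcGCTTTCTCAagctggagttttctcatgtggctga
Abcc4, chr14:118706220-118706279, minus strand: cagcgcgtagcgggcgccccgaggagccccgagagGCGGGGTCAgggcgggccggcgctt
Abcc4, chr14:118706294-118706353, minus strand: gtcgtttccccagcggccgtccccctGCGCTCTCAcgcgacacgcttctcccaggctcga
The second Srxn1 match, which ends 37 bases before the start, overlaps TGANTCA, the letters of an AP-1 site. The 3 windows of Txnrd1 held a match only in the second, and a second Abcc4 window, at another start, held 1 more match that is not shown.

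Of the regulators, Nfe2l2 (chromosome 2, 75675513 to 75704641, GRCm38, GENCODE M21) was highest in Pkhd1-high tumour nuclei and otherwise near level. It stood at 151 CPM (134 to 169) in hepatocyte-like tumour, 219.9 CPM (213 to 227) in Pkhd1-high tumour, 152 CPM (139 to 166) in ductal and 165 CPM (159.8 to 169) in hepatocyte nuclei. These and all other ranges in parentheses are exact 95% intervals, and they cover counting error in these nuclei only. Pkhd1-high tumour nuclei were 1.34-fold (1.28 to 1.40) above hepatocyte nuclei and 1.44-fold (1.31 to 1.59) above ductal nuclei, and the intervals of the other 3 classes overlapped. In free RNA, taken from 49929 barcodes that were not called as nuclei, Nfe2l2 was at 100.1 CPM, below all 4 classes. Keap1 (chromosome 9, 21229730 to 21239361), which encodes the inhibitor, stood at 34.5 CPM (26.8 to 43.8) in hepatocyte-like tumour, 40.7 CPM (37.7 to 43.9) in Pkhd1-high tumour, 31.1 CPM (25.4 to 37.7) in ductal and 31.5 CPM (29.5 to 33.7) in hepatocyte nuclei. Pkhd1-high tumour nuclei were 1.29-fold (1.17 to 1.43) above hepatocyte nuclei, so the gene for the factor and the gene for its inhibitor were higher by a like amount. Part of this is shared by genes at large, whose median log2 ratio here was 0.23, against 0.42 for Nfe2l2 and 0.36 for Keap1. Free RNA held Keap1 at 40.9 CPM, which is as high as in any of the 4 classes.

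The subunits of glutamate-cysteine ligase, the enzyme of the first step of glutathione synthesis, differed in their order over the classes. Gclc (chromosome 9, 77754535 to 77794485), the catalytic subunit, stood at 551 CPM (518 to 584) in hepatocyte-like tumour, 428 CPM (418 to 438) in Pkhd1-high tumour, 419 CPM (397 to 441) in ductal and 163 CPM (158 to 168) in hepatocyte nuclei. All 3 Ccnd3-bearing classes lay far above hepatocyte nuclei, by 3.38-fold (3.16 to 3.61) in hepatocyte-like tumour, 2.62-fold (2.53 to 2.72) in Pkhd1-high tumour and 2.57-fold (2.41 to 2.73) in ductal nuclei. The Pkhd1-high tumour and ductal levels could not be told apart, with a fold of 1.02 (0.965 to 1.08). Gclm (chromosome 3, 122245557 to 122270732), the modifier subunit that raises the activity of the enzyme, stood at 103 CPM (88.9 to 118) in hepatocyte-like tumour, 80.5 CPM (76.2 to 84.9) in Pkhd1-high tumour, 130.1 CPM (118 to 143) in ductal and 99.9 CPM (96.3 to 104) in hepatocyte nuclei. Its lowest level was thus in Pkhd1-high tumour nuclei, 0.805-fold (0.754 to 0.860) that of hepatocyte nuclei and 0.618-fold (0.554 to 0.691) that of ductal nuclei. Free RNA held more Gclm, 167 CPM, than any of these classes, and 202 CPM of Gclc. With the expected free RNA taken out, Gclc was at 641 CPM in hepatocyte-like tumour, 466 CPM in Pkhd1-high tumour, 474 CPM in ductal and 159 CPM in hepatocyte nuclei, so the gap was larger. Gclm was then at 85.9 CPM in hepatocyte-like tumour, 65.9 CPM in Pkhd1-high tumour, 121 CPM in ductal and 93.3 CPM in hepatocyte nuclei, in the same order as before except that hepatocyte-like tumour fell below hepatocyte nuclei.

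Shares of nuclei with a UMI were compared after each nucleus was thinned to 2000 UMIs. Gclc was then seen in 52.2% (46.1 to 58.3) of hepatocyte-like tumour, 39.9% (37.8 to 42.1) of Pkhd1-high tumour, 45.9% (42.2 to 49.7) of ductal and 28.8% (26.7 to 31.0) of hepatocyte nuclei. Without thinning the shares were 74.4%, 72.7%, 64.7% and 79.1% in that order, and hepatocyte nuclei were the deepest. Stellate nuclei, with a median of 3238 UMIs, showed Gclc in 14.7% (11.7 to 18.1) at 2000 UMIs, and all 4 shares lay above this level.

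Slc7a11 (chromosome 3, 49892526 to 50443614), which encodes the cystine transporter that feeds glutathione synthesis, was near the limit of detection in all 4 classes. It gave 2 UMIs in hepatocyte-like tumour, 50 in Pkhd1-high tumour, 6 in ductal and 10 in hepatocyte nuclei, or 1.02 CPM (0.123 to 3.67), 2.99 CPM (2.22 to 3.94), 1.81 CPM (0.665 to 3.94) and 0.356 CPM (0.171 to 0.655). The fold of Pkhd1-high tumour over hepatocyte nuclei was 8.40 (4.21 to 18.6), but it rested on few nuclei. Of the 50 UMIs, 34 came from 3 nuclei, and without these 3 the level was 0.960 CPM. One of them belonged to cluster 23, of 13 nuclei, in which Slc7a11 was at 395 CPM. Without the Pkhd1-high nuclei of clusters that do not pass that gate as a whole, the level was 1.12 CPM and the log2 ratio 0.64 instead of 1.56. Free RNA held 2.56 CPM. At 2000 UMIs the gene was seen in 0.370% of hepatocyte-like tumour, 0.145% of Pkhd1-high tumour, 0.424% of ductal and 0.174% of hepatocyte nuclei, with overlapping intervals.

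**Figure D1:**
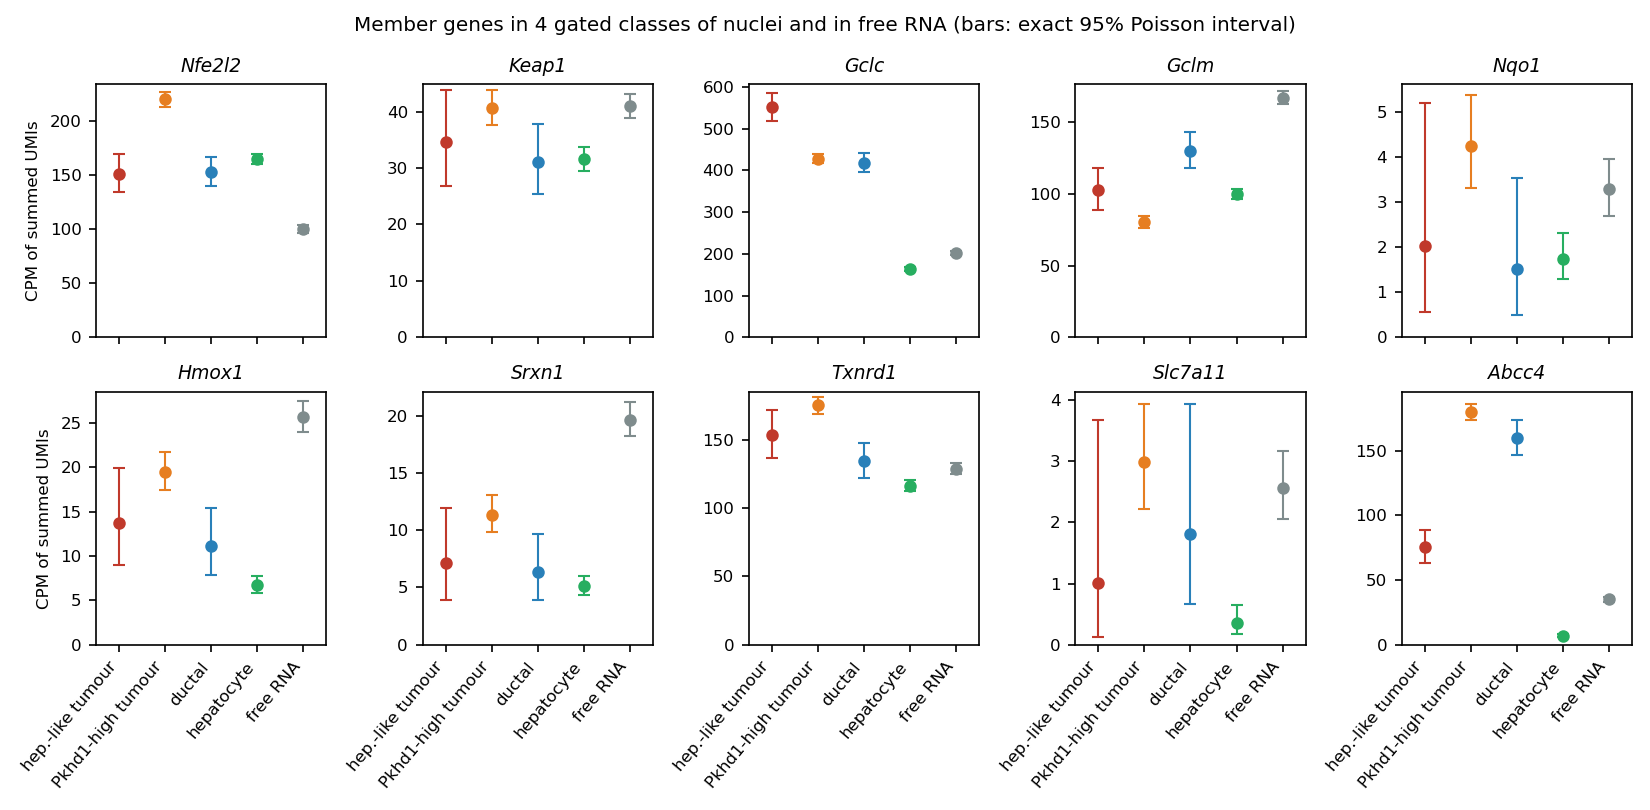
Level of each gene (CPM of summed UMIs, linear axes from 0) in hepatocyte-like tumour, Pkhd1-high tumour, ductal and hepatocyte nuclei and in free RNA, with exact 95% Poisson intervals. Gclc at 551, 428 and 419 CPM against 163 CPM and Abcc4 at 75.2, 180.0 and 159.7 CPM against 7.09 CPM set the first 3 classes apart from hepatocyte nuclei, while Gclm, Hmox1 and Srxn1 were highest in free RNA.

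Abcc4 (chromosome 14, 118482692 to 118706219), which encodes the export pump MRP4 for conjugates and cyclic nucleotides, differed most between the classes. It stood at 75.2 CPM (63.5 to 88.3) in hepatocyte-like tumour, 180.0 CPM (174 to 187) in Pkhd1-high tumour, 159.7 CPM (146 to 174) in ductal and 7.09 CPM (6.14 to 8.14) in hepatocyte nuclei, against 35.1 CPM in free RNA. Hepatocyte-like tumour nuclei were 10.6-fold (8.52 to 13.2), Pkhd1-high tumour nuclei 25.4-fold (21.99 to 29.5) and ductal nuclei 22.5-fold (19.1 to 26.7) above hepatocyte nuclei. At 2000 UMIs per nucleus it was seen in 12.6% (8.88 to 17.2), 26.7% (24.8 to 28.6), 21.6% (18.6 to 24.8) and 1.56% (1.03 to 2.27) of nuclei in the same order. Hepatocyte-like tumour nuclei held 0.418-fold (0.352 to 0.493) the level of Pkhd1-high tumour nuclei, and it was the only gene of the 10 called apart between the tumour classes by the rule given below. Endothelial nuclei also carried Abcc4, at 70.8 CPM (59.5 to 83.6). So did macrophage nuclei at 99.6 CPM (55.7 to 164), B cell nuclei at 94.4 CPM (56.9 to 147) and fibroblast or smooth muscle nuclei at 68.7 CPM (50.8 to 90.8). Without the 3 nuclei with most of its UMIs, these last 3 classes stood at 63.5, 39.2 and 17.9 CPM. Of the 11 gated classes, hepatocyte nuclei were lowest, followed by mesothelial nuclei at 14.0 CPM (2.88 to 40.8), whose interval held the hepatocyte value.

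Among the redox enzymes of the programme, only Hmox1 and Srxn1 were past 2-fold in Pkhd1-high tumour over hepatocyte nuclei by the rule given below. Txnrd1 (chromosome 10, 82833951 to 82897712), the cytosolic thioredoxin reductase, stood at 153 CPM (137 to 172) in hepatocyte-like tumour, 175 CPM (169 to 182) in Pkhd1-high tumour, 134 CPM (122 to 147) in ductal and 116 CPM (112 to 120.2) in hepatocyte nuclei. Pkhd1-high tumour nuclei were 1.51-fold (1.43 to 1.58) and hepatocyte-like tumour nuclei 1.32-fold (1.17 to 1.49) above hepatocyte nuclei. Hmox1 (chromosome 8, 75093621 to 75100589), the inducible haem oxygenase, stood at 13.7 CPM (9.04 to 19.95) in hepatocyte-like tumour, 19.4 CPM (17.4 to 21.7) in Pkhd1-high tumour, 11.2 CPM (7.87 to 15.4) in ductal and 6.73 CPM (5.81 to 7.76) in hepatocyte nuclei. That is 2.89-fold (2.41 to 3.48) in Pkhd1-high tumour and 2.04-fold (1.31 to 3.06) in hepatocyte-like tumour over hepatocyte nuclei. Free RNA held 25.7 CPM of Hmox1, above all 4 classes, and with the expected free RNA taken out Pkhd1-high tumour and hepatocyte nuclei stood at 18.4 and 4.86 CPM. A list of 12 macrophage markers summed to 213 CPM in hepatocyte-like tumour, 141 CPM in Pkhd1-high tumour, 147 CPM in ductal and 109 CPM in hepatocyte nuclei, with none of the 12 at 0, and its part in the Hmox1 levels was not tested.

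Srxn1 (chromosome 2, 152105516 to 152111376), which encodes sulfiredoxin and repairs overoxidized peroxiredoxins, stood at 7.11 CPM (3.89 to 11.9) in hepatocyte-like tumour, 11.4 CPM (9.81 to 13.1) in Pkhd1-high tumour, 6.34 CPM (3.93 to 9.69) in ductal and 5.13 CPM (4.33 to 6.04) in hepatocyte nuclei, against 19.7 CPM in free RNA. Only the Pkhd1-high tumour interval cleared that of hepatocyte nuclei, at 2.22-fold (1.78 to 2.77), and with free RNA taken out the levels were 9.97 CPM in Pkhd1-high tumour and 3.69 CPM in hepatocyte nuclei. Nqo1 (chromosome 8, 107388225 to 107403206), the quinone reductase often used as a readout of NRF2, gave few UMIs in every class. It gave 4 UMIs in hepatocyte-like tumour, 71 in Pkhd1-high tumour, 5 in ductal and 49 in hepatocyte nuclei, or 2.03 CPM, 4.25 CPM, 1.51 CPM and 1.75 CPM, and free RNA held 3.28 CPM. Pkhd1-high tumour nuclei were 2.43-fold (1.67 to 3.58) above hepatocyte nuclei and 2.81-fold (1.15 to 8.93) above ductal nuclei. The second fold rests on 5 ductal UMIs, and against the 96 ductal nuclei with low Ccnd3, which gave 2 UMIs, its log2 ratio was -0.21.

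Counted over the 10 genes, Pkhd1-high tumour nuclei had the most genes above hepatocyte nuclei. A gene was called higher or lower at a log2 ratio of at least 1 in size, with 1 CPM added to each level, and only with at least 20 UMIs over both classes, which Slc7a11 missed where 9 genes are given. Over hepatocyte nuclei, 2 of 9 genes were called higher in hepatocyte-like tumour nuclei (Gclc and Abcc4), where 16.8% of all 15220 genes were, and 5 of 10 in Pkhd1-high tumour nuclei (Gclc, Hmox1, Srxn1, Slc7a11 and Abcc4), where 21.6% of 16884 genes were. Ductal nuclei had 2 of 9 called higher than hepatocyte nuclei (Gclc and Abcc4), against 22.0% of 15715 genes. None was called lower in these 3 comparisons, where 7.1%, 13.4% and 12.1% of genes were. These counts depend on the setting, with 4 called higher in hepatocyte-like tumour nuclei when classes were taken from Leiden clusters, and 2 in Pkhd1-high tumour nuclei with a pseudocount of 10 CPM. Of the 5 in Pkhd1-high tumour nuclei, Slc7a11 rests on 3 nuclei. It passed the minimum only through its 50 UMIs in this class, with 10 in hepatocyte nuclei. As it was not counted for hepatocyte-like tumour or ductal over hepatocyte nuclei, the counts are not over the same genes. Srxn1 had a log2 ratio of 1.01, next to the threshold, while Nqo1 fell short at 0.93. The median log2 ratio of the genes was 0.40 in hepatocyte-like tumour, 0.97 in Pkhd1-high tumour and 0.26 in ductal nuclei, against 0.18, 0.23 and 0.23 over all genes. These 3 comparisons share the same hepatocyte nuclei. When the shift of all genes was taken out, Pkhd1-high tumour nuclei had 4 called higher. In Pkhd1-high tumour over ductal nuclei, 1 of 10 was called higher (Nqo1), against 7.17% of 15454 genes, and none lower, against 9.6%. In hepatocyte-like over Pkhd1-high tumour nuclei, 1 of 10 was called lower (Abcc4), against 11.4% of 15209 genes, and none higher, against 12.1%.

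**Figure D2:**
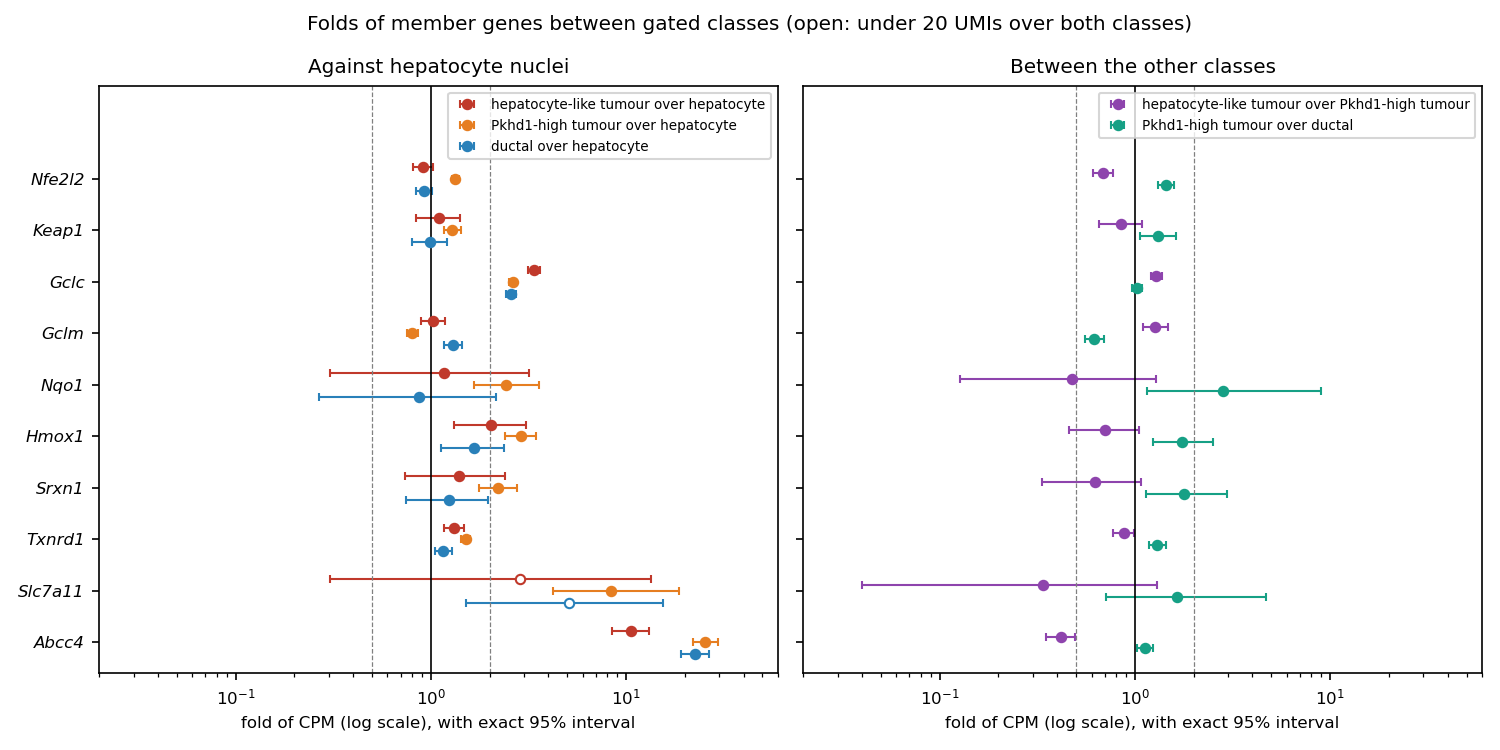
Fold of each gene between classes (x axis, log scale) with its exact 95% interval, against hepatocyte nuclei on the left and between the other classes on the right; dashed lines mark 2-fold in either direction, and open points have under 20 UMIs over both classes. Gclc at 3.38, 2.62 and 2.57-fold and Abcc4 at 10.6, 25.4 and 22.5-fold lie right of the 2-fold line in all 3 classes set against hepatocyte nuclei.

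Within Pkhd1-high tumour nuclei, Gclc varied more than between the main tumour classes. It stood at 702 CPM (666 to 741) in 222 nuclei gated for Zfp804a and Hmga2, 229 CPM (205 to 255) in 186 nuclei with high Hk2, 540.0 CPM (496 to 587) in 86 dividing nuclei and 304 CPM (291 to 318) in 793 nuclei gated for Kcnj16 and Slc8a3. Gclc was thus 2.31-fold (2.15 to 2.47) higher in the Zfp804a and Hmga2 sub-class than in the Kcnj16 and Slc8a3 sub-class, and of 9 genes it was the only one called higher, where 7.42% of all genes were. Endothelial markers summed to 494 CPM in the Zfp804a and Hmga2 sub-class and 68.9 CPM in the Kcnj16 and Slc8a3 sub-class (none of 11 at 0 in either), and ductal markers to 2042 CPM (1 of 12 at 0) and 5799 CPM (none at 0). Their part in the Gclc levels was not tested. Gclm was not higher there, with 73.7 CPM (62.1 to 86.7) in the Zfp804a and Hmga2 sub-class and 77.9 CPM (71.3 to 85.03) in the Kcnj16 and Slc8a3 sub-class. Even the lowest of these Gclc levels lay above the 163 CPM of all hepatocyte nuclei. Pericentral hepatocyte nuclei held Gclc at 212 CPM, however, which lies inside the interval of the nuclei with high Hk2. Abcc4 was lower in the Zfp804a and Hmga2 sub-class, at 130.5 CPM against 175 CPM, a fold of 0.746 (0.649 to 0.855), and none of the 9 was called lower, where 10.1% of all genes were.

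Nuclei with high Hk2, a hexokinase gene of hypoxic and glycolytic cells, differed in other genes. Set against the Kcnj16 and Slc8a3 sub-class, they held more Nfe2l2, at 287 CPM (260.5 to 316) against 221 CPM (209.9 to 233), and more Hmox1, at 34.5 CPM (25.7 to 45.3) against 16.3 CPM (13.3 to 19.7). Both subunits of the ligase were lower, Gclc at 0.752-fold (0.669 to 0.845) and Gclm at 0.668-fold (0.518 to 0.850). Of 9 genes, Nqo1 and Hmox1 were called higher, where 4.88% of all genes were, and none lower, where 6.92% were. Hmox1 was 2.12-fold (1.49 to 2.99) higher. The 15 UMIs of Nqo1 came from 5 nuclei. In dividing nuclei Txnrd1 was at 278 CPM (246 to 312) against 145 CPM (136 to 155), or 1.91-fold (1.67 to 2.19), and Abcc4 at 239.8 CPM (211 to 272) against 175 CPM (165 to 185). There 1 of 9 genes was called higher, Nqo1 with 7 UMIs, against 8.77% of all genes, and none lower, against 7.37%. These sub-classes are set against the same Kcnj16 and Slc8a3 nuclei, and dividing nuclei were deeper, with a median of 10805.5 against 7539 UMIs, whose part in the levels was not tested.

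**Figure D3:**
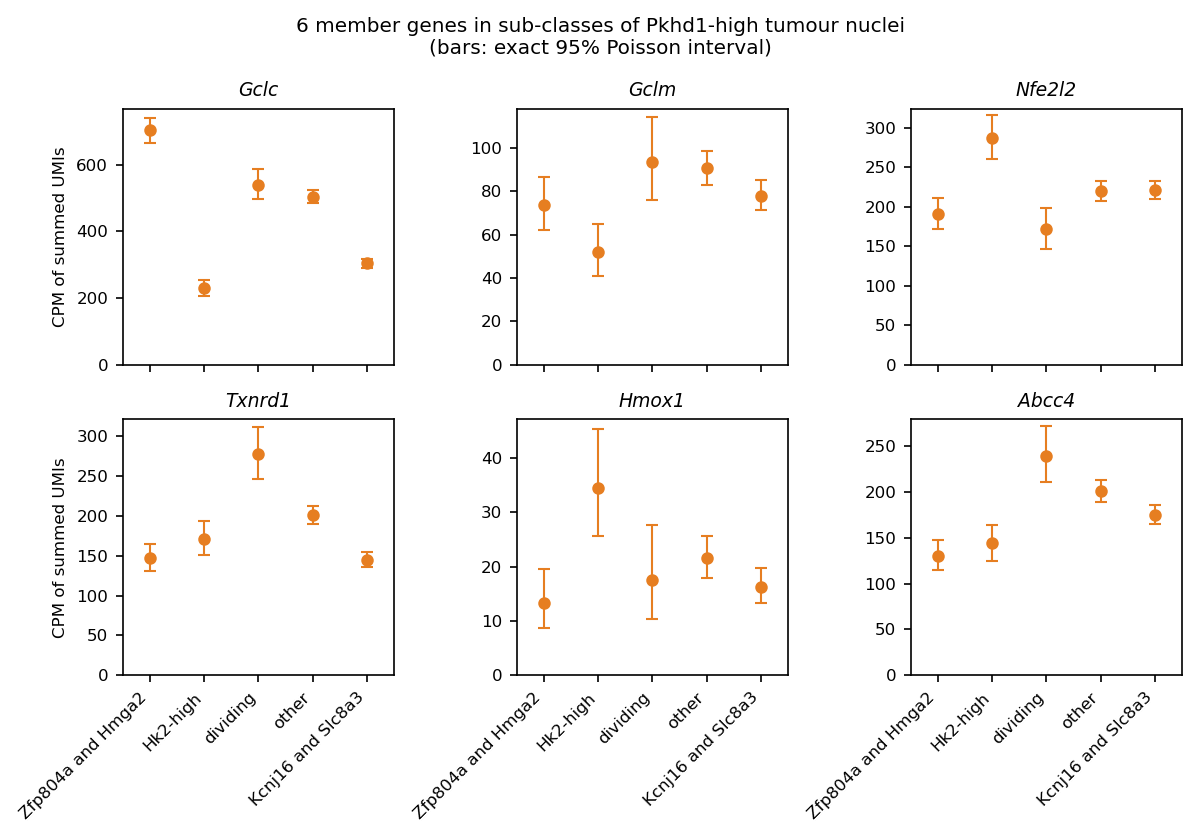
Level of 6 genes (CPM of summed UMIs, linear axes from 0) in sub-classes of Pkhd1-high tumour nuclei, with exact 95% Poisson intervals; the Kcnj16 and Slc8a3 sub-class is at the right. Gclc runs from 229 CPM in nuclei with high Hk2 to 702 CPM in the Zfp804a and Hmga2 sub-class, and Txnrd1 and Abcc4 are highest in dividing nuclei.

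The ductal class was split at 2000 CPM of Ccnd3 because most of it carried this tumour marker. Gclc stood at 439.6 CPM (416 to 464) in 612 nuclei with high Ccnd3 and 263 CPM (215 to 319) in 96 with low Ccnd3, a fold of 1.67 (1.37 to 2.06). Abcc4 stood at 167 CPM (152 to 182) with high and 109 CPM (78.7 to 146) with low Ccnd3, a fold of 1.53 (1.12 to 2.15). Gclm did not differ beyond counting error, at 130.3 CPM with high and 129 CPM with low Ccnd3 and a fold of 1.01 (0.753 to 1.38). Of 8 genes, 1 was called higher, where 8.73% of all genes were, and none lower, where 5.42% were. It was Srxn1, with 21 UMIs in nuclei with high Ccnd3 and 0 in the 96 with low Ccnd3, where 3 counts would be 7.58 CPM, and the interval of the ratio, which begins at 0.706, held 1. Other markers moved with this split. Dividing markers summed to 50.8 CPM with high and 602 CPM with low Ccnd3 (none of 10 at 0 in either), mesothelial markers to 13.7 and 119 CPM (2 and 3 of 7 at 0), and stellate markers to 87.8 and 152 CPM (0 and 2 of 10 at 0), and their part was not tested. Ductal nuclei with low Ccnd3 still lay above hepatocyte nuclei in both Gclc and Abcc4. In hepatocyte nuclei, 106 pericentral nuclei held more Gclm than 822 periportal ones, 135 CPM against 92.6 CPM, a fold of 1.46 (1.26 to 1.68). Pericentral nuclei were also 1.30-fold (1.15 to 1.45) higher in Nfe2l2, 1.43-fold (1.08 to 1.88) in Keap1 and 1.22-fold (1.09 to 1.37) in Gclc, and stood at 0.839-fold (0.705 to 0.992) in Txnrd1. None of 9 genes was 2-fold apart, where 5.51% of all genes were higher and 6.64% lower.

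Outside the epithelium, Slc7a11 and Hmox1 reached higher levels than in either tumour class. Slc7a11 was at 21.8 CPM (15.5 to 29.8) in stellate nuclei, 52.4 CPM (37.6 to 71.1) in T or NK nuclei and 39.8 CPM (17.2 to 78.3) in B cell nuclei. In the 504 stellate nuclei its 39 UMIs were spread over 31 nuclei, but of the 41 UMIs in T or NK nuclei 31 came from 3 nuclei, and without these the level was 13.0 CPM. Of the 8 UMIs in B cell nuclei 5 came from 3 nuclei, and without these the level was 15.6 CPM. B cell nuclei also carried fibroblast markers at a sum of 969 CPM (none of 10 at 0) and stellate markers at 835 CPM (2 of 10 at 0), beside 2435 CPM of their own 9 markers. T or NK nuclei carried macrophage markers at 1109 CPM (none of 12 at 0) beside 2221 CPM of their own 10, and the part of these markers in the levels was not tested. Hmox1 was highest in the 43 macrophage nuclei, at 92.9 CPM (50.8 to 156) from 14 UMIs in 8 nuclei, and without the top 3 nuclei it was 36.6 CPM. Nfe2l2 was at 239 CPM (167 to 331) in macrophage and 245 CPM (212 to 283) in T or NK nuclei, which did not differ from the 219.9 CPM of Pkhd1-high tumour nuclei beyond counting error. Stellate nuclei had 87.3 CPM (74.2 to 102) of it and fibroblast or smooth muscle nuclei 92.5 CPM (71.5 to 118), the lowest levels. Gclc was at 90.1 to 155 CPM in these 7 other classes, below the 163 CPM of hepatocyte nuclei in each. The intervals of T or NK nuclei (128 to 185 CPM), macrophage nuclei (70.8 to 189 CPM) and B cell nuclei (68.5 to 166 CPM) held the hepatocyte value.

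**Figure D4:**
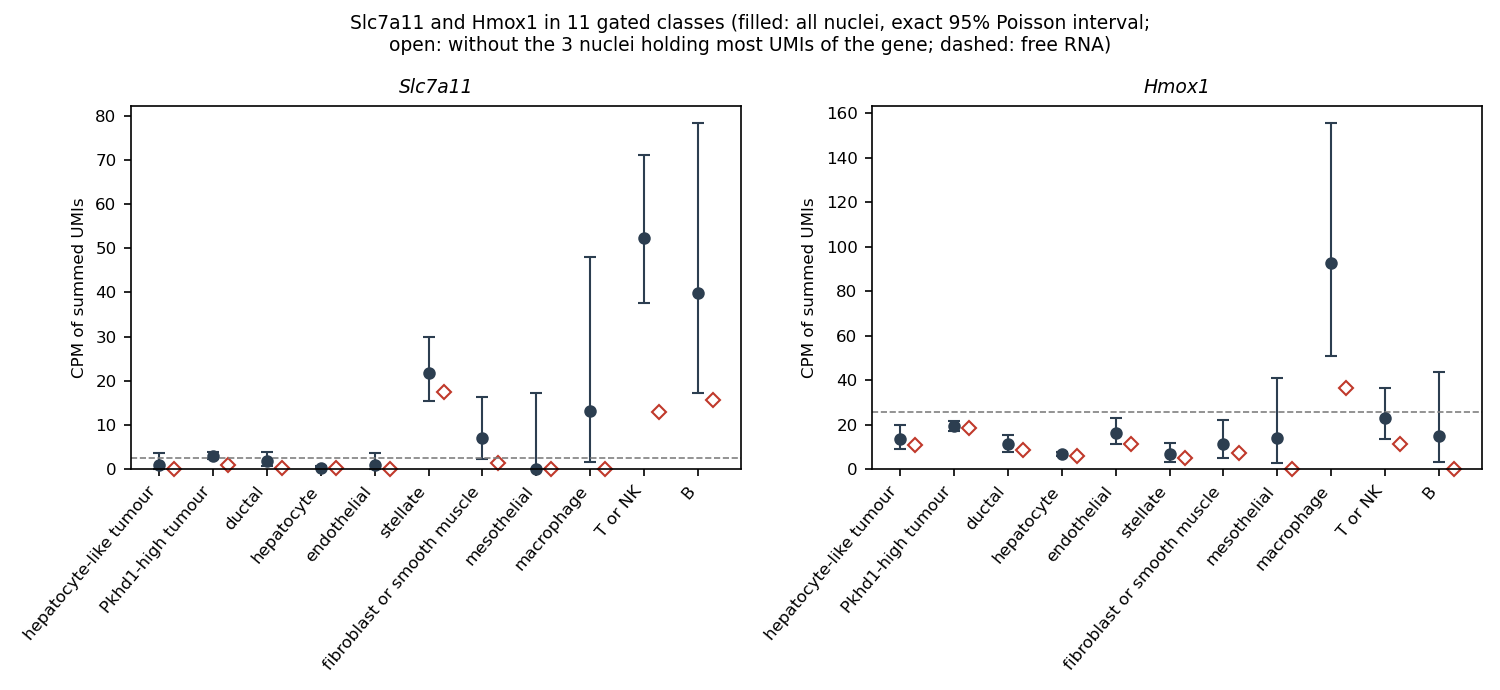
Level of Slc7a11 and Hmox1 (CPM of summed UMIs, linear axes from 0) in 11 gated classes; filled points are all nuclei with exact 95% Poisson intervals, open diamonds leave out the 3 nuclei with most UMIs of the gene, and the dashed line is free RNA. Slc7a11 in T or NK nuclei stands at 13.0 CPM without 3 nuclei and 52.4 CPM with them, while stellate nuclei stand at 17.5 CPM and 21.8 CPM.

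Related genes were read in 9 lists of 132 genes that hold none of the 10, to show the levels of the pathway around them. Their counts can be read against the 16.8% of genes called higher and 7.1% called lower in hepatocyte-like tumour over hepatocyte nuclei, and the 21.6% and 13.4% in Pkhd1-high tumour over hepatocyte nuclei. A count near its share says no more of a list than of all genes. Of the NRF2 partners and regulators, 1 of 12 was called higher in hepatocyte-like tumour and 3 of 12 in Pkhd1-high tumour over hepatocyte nuclei, and none lower. Maff, a small MAF partner, led with 17.3 CPM in Pkhd1-high tumour against 1.89 CPM in hepatocyte nuclei, or 9.16-fold (6.81 to 12.5). Btrc, of a second ligase that degrades NRF2, was 0.631-fold (0.598 to 0.667) the hepatocyte level there. Ductal nuclei had Maff at 6.72-fold (4.37 to 10.3) and Btrc at 0.753-fold (0.680 to 0.831) the hepatocyte level. Sqstm1, the autophagy receptor p62 that can sequester KEAP1, was at 341 CPM in Pkhd1-high tumour against 170.0 CPM in ductal nuclei, a fold of 2.01 (1.84 to 2.19).

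Genes of glutathione supply went both ways in Pkhd1-high tumour nuclei. Of 18 in hepatocyte-like tumour over hepatocyte nuclei, 3 were called higher and none lower, against 16.8% and 7.1% of all genes. Of 19 in Pkhd1-high tumour over hepatocyte nuclei, 4 were called higher and 5 lower, against 21.6% and 13.4%. Both counts of higher genes lay near the share of all genes. Ggt1, which recycles extracellular glutathione, was 11.1-fold (6.85 to 19.1) higher and the amino acid transporter Slc1a5 6.80-fold (5.11 to 9.18). Cbs and Cth, which make cysteine from homocysteine, were 11.01-fold (9.81 to 12.4) and 14.2-fold (11.1 to 18.5) lower. Ductal over hepatocyte nuclei went the same way, with Ggt1 25.4-fold (14.9 to 45.3) and Slc1a5 3.25-fold (1.92 to 5.34) higher. Cbs and Cth were 4.38-fold (3.73 to 5.18) and 7.34-fold (4.95 to 11.4) lower there. In hepatocyte-like tumour nuclei Cth was at 36.6 CPM against 55.4 CPM in hepatocyte nuclei, 0.660-fold (0.514 to 0.837), and Cbs and Cth were 9.94-fold (8.50 to 11.6) and 9.40-fold (6.63 to 13.4) above Pkhd1-high tumour nuclei. The gates held hepatocyte genes under 1500 CPM in Pkhd1-high tumour and ductal nuclei, and the part of this in Cbs and Cth was not tested. Slc3a2, the heavy chain that pairs with the cystine transporter, was 2.09-fold (1.56 to 2.76) higher in hepatocyte-like tumour than in hepatocyte nuclei. Its level was higher still in Pkhd1-high tumour nuclei, at 56.9 CPM, against 21.7 CPM in ductal and 14.3 CPM in hepatocyte nuclei.

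Of the glutathione transferases and peroxidases, 8 of 24 were called higher and 1 lower in hepatocyte-like tumour, and 11 of 25 higher and 3 lower in Pkhd1-high tumour over hepatocyte nuclei. Mgst2, a membrane-bound transferase, was 12.4-fold (7.53 to 20.3) and 18.6-fold (13.3 to 26.6) higher in the 2 tumour classes. Gpx4, the peroxidase that removes lipid peroxides, was 3.06-fold (2.66 to 3.51) higher in hepatocyte-like and 3.33-fold (3.11 to 3.58) higher in Pkhd1-high tumour nuclei. Gstz1, of tyrosine breakdown, was 5.17-fold (4.80 to 5.57) lower in Pkhd1-high tumour nuclei. Ductal nuclei shared these directions, with Mgst2 9.15-fold (5.74 to 14.6) above and Gstz1 3.11-fold (2.75 to 3.53) below hepatocyte nuclei. Gpx4 was at 113 CPM in ductal against 42.3 CPM in hepatocyte nuclei. Reads of the transferase families can be split among near-identical copies, so single members are uncertain. The same list had 8 of 21 called higher in pericentral over periportal hepatocyte nuclei, and none lower, where 5.51% of all genes were higher and 6.64% lower.

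NADPH supply had 1 of 8 called higher in hepatocyte-like tumour and 4 of 8 in Pkhd1-high tumour over hepatocyte nuclei, and none lower. G6pdx, the entry enzyme of the pentose phosphate pathway, was 3.12-fold (1.85 to 5.04) and 7.24-fold (5.79 to 9.14) higher, and Tkt, a transketolase, 1.71-fold (1.35 to 2.13) and 4.01-fold (3.67 to 4.38). Among quinone, carbonyl and phase II genes, 3 of 16 were called higher in hepatocyte-like tumour, and 7 of 18 higher and 2 lower in Pkhd1-high tumour nuclei. Akr1b8, an aldo-keto reductase, was at 47.3 CPM in Pkhd1-high tumour against 1.35 CPM in hepatocyte nuclei, 34.97-fold (25.3 to 49.8), and 5.80-fold (3.96 to 8.86) above ductal nuclei. Nqo2, the relative of Nqo1, was 3.57-fold (2.93 to 4.33) higher in hepatocyte-like tumour nuclei. Ductal nuclei also lay above hepatocyte nuclei in these genes. The folds were 4.42 (3.07 to 6.28) for G6pdx, 2.29 (1.94 to 2.68) for Tkt, 6.02 (3.54 to 10.1) for Akr1b8 and 2.09 (1.71 to 2.54) for Nqo2.

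The transporters related to Abcc4 went both ways, with 4 of 11 called higher in hepatocyte-like tumour and 3 of 11 higher and 3 lower in Pkhd1-high tumour over hepatocyte nuclei. Abcc5 was at 657 CPM in Pkhd1-high tumour against 28.9 CPM in hepatocyte nuclei, 22.7-fold (21.2 to 24.4), and Abcc1 16.3-fold (12.3 to 21.8). Abcc6 and Abcb4, a phospholipid pump of the bile canaliculus, were 25.0-fold (21.6 to 29.2) and 12.8-fold (11.7 to 14.1) lower. Abcb1a was 19.3-fold (12.1 to 31.0) higher in hepatocyte-like tumour nuclei. These directions were shared by ductal over hepatocyte nuclei. Abcb1a was 73.3-fold (51.3 to 107.9), Abcc1 20.4-fold (14.9 to 28.4) and Abcc5 13.1-fold (11.96 to 14.3) higher there. Abcc6 was 9.39-fold (7.67 to 11.6) and Abcb4 10.9-fold (9.08 to 13.2) lower. The part of the gate on hepatocyte genes in the levels of Abcc6 and Abcb4 was not tested. Of haem and iron genes, 2 of 8 were called higher in hepatocyte-like tumour, and 1 of 8 higher and 1 lower in Pkhd1-high tumour nuclei. The iron exporter Slc40a1 was 2.44-fold (2.19 to 2.71) and 2.56-fold (2.43 to 2.70) higher in hepatocyte-like and Pkhd1-high tumour nuclei, and Blvrb, a biliverdin reductase, 4.34-fold (3.68 to 5.15) lower in Pkhd1-high tumour nuclei. Thioredoxin, peroxiredoxin, catalase and dismutase genes had 1 of 18 called higher in hepatocyte-like tumour, and 3 of 18 higher with Cat, the catalase, 2.75-fold (2.63 to 2.87) lower in Pkhd1-high tumour nuclei. A list of ferroptosis genes, which holds both genes that guard against this lipid peroxide death and genes that promote it, had none of 9 called in hepatocyte-like tumour, and 1 higher and 1 lower in Pkhd1-high tumour over hepatocyte nuclei. Both are iron importers. The transferrin receptor Tfrc was at 98.96 CPM in Pkhd1-high tumour against 41.1 CPM in hepatocyte nuclei, 2.41-fold (2.23 to 2.60) higher. Slc39a14 was at 299 CPM against 1517 CPM, 5.08-fold (4.93 to 5.23) lower. Ductal nuclei held Tfrc 1.31-fold (1.11 to 1.53) and Slc40a1 1.18-fold (1.05 to 1.33) above hepatocyte nuclei. They were lower in Slc39a14 by 4.61-fold (4.34 to 4.90), in Blvrb by 2.22-fold (1.72 to 2.91) and in Cat by 1.33-fold (1.24 to 1.42).

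**Figure D5:**
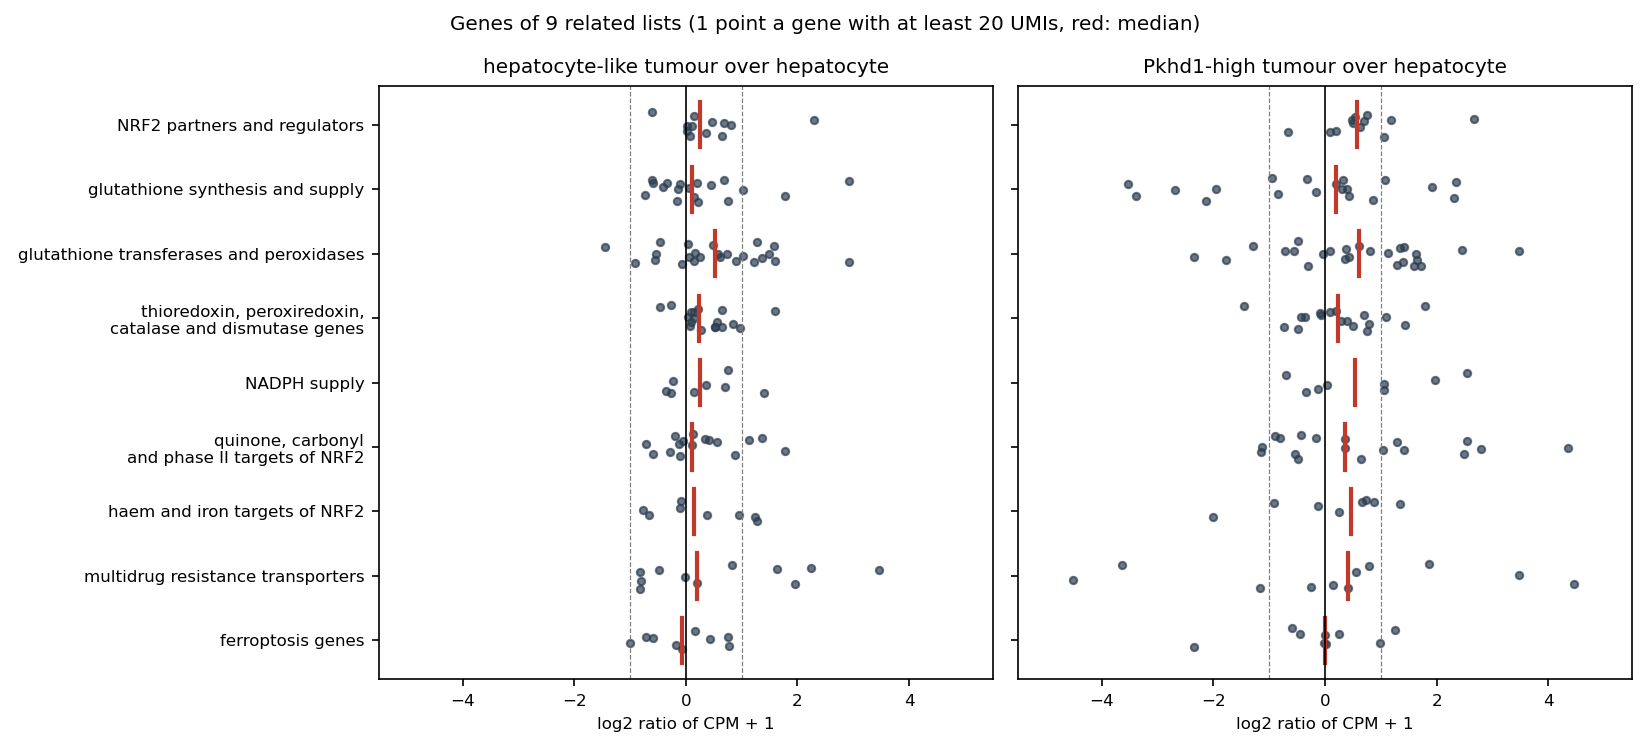
Log2 ratio of each gene of 9 related lists (x axis, CPM with 1 added) in hepatocyte-like tumour over hepatocyte nuclei on the left and Pkhd1-high tumour over hepatocyte nuclei on the right; a point is a gene with at least 20 UMIs over both classes, the red bar is the list's median, and dashed lines mark a ratio of 1 in either direction. The medians run from -0.07 to 0.53 on the left and from 0.00 to 0.60 on the right, where all genes have medians of 0.18 and 0.23, and on the right single genes of glutathione supply and of the transporters lie far out on both sides.

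The genes whose levels ran most like those of the 10 over the 11 gated classes were named by Pearson's r of log2 CPM among 10355 genes. This was done for the 4 that varied most among those with at least 200 UMIs over these classes, which left out Nqo1 with 141 and Slc7a11 with 165 UMIs. They were Ubqln2 (r = 0.96), Mvp (0.95) and Cep250 (0.93) for Abcc4, and Kif9, Nfs1 and Lima1 (each 0.95) for Gclc. For Hmox1 they were Arhgap17 (0.96), Snx5 (0.95) and Vps35l (0.95). The highest Hmox1 level, in macrophage nuclei, rests on 14 UMIs, 9 of them from 3 nuclei. For Keap1, whose pattern rests on 1 UMI in macrophage nuclei, they were Zfp335os, Endov and Trappc4 (each 0.96). All these points come from 1 matrix, differ in depth and share free RNA, and the r values describe it only.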

How the data were processed

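The authors deposited 1 matrix of UMI counts, raw and without normalization, over 32285 genes and 17169 called barcodes, with 95130408 UMIs (891 to 125991 a barcode, median 2794), and an unfiltered matrix. Per the submitters' processing notes, Cell Ranger 5.0 and the mm10 build were used. The sources used here do not say whether the matrix holds both samples or 1, or whether counting used strand. In the annotation, genes of the opposite strand overlap Keap1, Gclm, Txnrd1, Slc7a11 and Abcc4, and genes of the same strand overlap Nfe2l2, Gclm, Txnrd1, Slc7a11 and Abcc4, and their reads may not be told apart. Those on Abcc4 share 272, 104 and 100 bases with it.

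Barcodes with at least 2000 UMIs and at most 5% mitochondrial UMIs were kept (9632). Scrublet in scanpy 1.11.5 called 323 doublets, which were left out. Nuclei were gated by the summed CPM of marker panels: Pkhd1-high tumour by Ahnak2, Col4a6, Dclk1, Grm3 and other genes at 2500 CPM, hepatocyte-like tumour by Ccnd3, Gpc3 and others at 3000 CPM with hepatocyte genes at 1500 CPM, ductal by Cftr, Asz1, Bicc1 and others at 3500 CPM with Pkhd1 at 2000 CPM, and hepatocyte by Kyat3, Cyp7b1 and others at 2000 CPM. Hepatocyte nuclei also had to hold the hepatocyte-like tumour panel at under 1000 CPM and hepatocyte genes at 1500 CPM or more. Pkhd1-high tumour and ductal nuclei had to hold hepatocyte genes at under 1500 CPM. Hepatocyte-like tumour, Pkhd1-high tumour and ductal nuclei had to hold the hepatocyte panel at under 2000 CPM. The score for Pkhd1-high tumour left out Pkhd1 itself and held Kcnj16, Slc8a3, Zfp804a and Hmga2, which also define sub-classes. These nuclei had to score under 3500 CPM for the ductal panel, a threshold that ductal nuclei had to reach. With Pkhd1 counted, the Pkhd1-high tumour panel summed to 9396 CPM in Pkhd1-high tumour and 7824 CPM in ductal nuclei. Of the barcodes, 3119 met no gate. Within 20% of the entry threshold lay 14.1% of hepatocyte-like tumour, 9.07% of Pkhd1-high tumour, 13.8% of ductal and 9.90% of hepatocyte nuclei. The members, lists and markers were chosen with earlier results of these data known. The gate thresholds, the sub-classes and the split of ductal nuclei were set after levels of the genes had been seen in clusters and in a first version of the gates, which took fewer hepatocyte-like tumour nuclei.

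UMIs were summed per class and scaled to CPM. Intervals are exact (Poisson, Clopper-Pearson for shares, and conditional binomial for ratios) at 95%. Nuclei are not replicates, so there is no p-value. Free RNA came from 49929 uncalled barcodes of 500 to under 850 UMIs. From each related list, the text names genes from the 2 highest and 2 lowest ratios among those with at least 50 UMIs. Leiden clusters (leidenalg 0.10.2, resolution 1) gave 23 clusters for an alternative, with the members and lists held out. The calculation was checked on simulated data.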

Additional observations from a re-analysis of the deposited data

How the results depend on the processing

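Over 15 alternatives, Abcc4 kept its direction and stayed past 2-fold in 15 of 15 in each of the 4 comparisons that called it, with log2 ratios of 3.47 to 5.26 for Pkhd1-high tumour over hepatocyte and 2.32 to 4.02 for hepatocyte-like tumour over hepatocyte nuclei. Gclc did so in 15 of 15 for both tumour classes over hepatocyte nuclei (1.46 to 2.00 for hepatocyte-like, 1.16 to 1.55 for Pkhd1-high), and in 14 for ductal nuclei (0.69 to 1.56), the exception being ductal nuclei with low Ccnd3 only. Past 2-fold for Pkhd1-high tumour over hepatocyte nuclei stayed Hmox1 in 14, Slc7a11 in 11 and Srxn1 in 10 of 15. Nqo1 over ductal nuclei stayed so in 9 and turned to -0.21 with ductal nuclei of low Ccnd3. The number of genes called higher in Pkhd1-high tumour over ductal nuclei, 1 in the text, was 0 at a minimum of 4000 UMIs, at 1% mitochondrial UMIs, by Leiden clusters and with a pseudocount of 10 CPM, 2 with each nucleus weighted equally and with ductal nuclei of low Ccnd3, and 3 with free RNA removed. The number lower in hepatocyte-like over Pkhd1-high tumour nuclei, 1 in the text, was 2 at 1% mitochondrial UMIs, with doublets kept, with equal weights and without nuclei of other clusters, and 3 at 4000 UMIs, under a stricter gate, with free RNA removed and with a pseudocount of 0.1 CPM. The number higher over hepatocyte nuclei was 4 by Leiden clusters for hepatocyte-like tumour (2 in the text), and 2 with a pseudocount of 10 CPM for Pkhd1-high tumour (5 in the text). Ductal nuclei of low Ccnd3 gave 1 lower than hepatocyte nuclei (0 in the text). Of 150 such counts under alternatives, the other 132 lay within 1.5 times. The causes were not tested. Ductal nuclei of low Ccnd3 only, and tumour classes without nuclei of other clusters, were chosen after seeing the data. No paired analysis was possible because nuclei cannot be assigned to either sample, and leaving out each sample was not possible for that reason. Srxn1, Hmox1, Nqo1 and Slc7a11 had under 30 UMIs each in hepatocyte-like tumour nuclei and wide intervals there.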
